A study of Mus musculus with 4 samples.

Results

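The Hox genes encode homeodomain transcription factors and lie in 4 clusters, Hoxa on chromosome 6, Hoxb on chromosome 11, Hoxc on chromosome 15 and Hoxd on chromosome 2. The 38 Hox genes described here, of 21757 protein-coding genes in the annotation, were taken by name. Their H3K27ac peaks were all peak intervals inside a cluster, from its first to its last listed gene, or within 100 kb of one of the start sites, on the mouse genome build GRCm39. Over the 4 peak lists this gave 216 of 142206 intervals, namely 39 in limb EGFP+, 37 in limb EGFP-, 62 in trunk EGFP+ and 78 in trunk EGFP- cells. They include promoters of neighbouring genes. At Hoxd, 10, 7, 7 and 8 intervals of these lists lay at promoters, of which 5, 2, 3 and 5 were at Hox promoters.

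H3K27ac is a histone acetylation found at active promoters and enhancers. It was profiled by ChIP-seq in E14.5 fetuses of genotype Col2a1-EGFP on the G4 background, with 1 library for each of the 4 sorted populations. All groups carry the same homozygous sensor, a minimal β-globin promoter with EGFP placed upstream of Col2a1, in fetuses made by tetraploid aggregation from 1 embryonic stem cell line. EGFP+ cells thus stand for cells with Col2a1 activity, mostly chondrocytes, and EGFP- cells are the mixture of all other cell types of the same tissue. In such bulk samples, fewer acetylated cells and less acetylation per cell cannot be told apart. Limb samples joined fore- and hindlimbs along their whole length, trunk samples ran from neck to tail without the internal organs, and several fetuses were pooled, so positions along the body axis or along the limb were mixed in every list. With 1 library per group there is no replicate error and no test was made between groups. Values are set side by side with exact 95% intervals for the number of reads or intervals, which cover counting error only.

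Within a cluster the Hox genes all point the same way, and genes of like position in different clusters share a paralog number, from 1 at the 3′ end to 13 at the 5′ end. The genes are known for collinearity, in which 3′ genes are used earlier and further forward along the body axis than 5′ genes. In the limb, the 5′ genes of Hoxa and Hoxd, from paralog 9 to paralog 13, pattern the segments from the upper arm or thigh to the digits. In the trunk, the combination of Hox genes in use sets vertebral identity.

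The depth behind the lists was read from the peaks. The fold and −log10 p of a summit give the reads at that summit and the local background that the peak caller MACS2 compared them with. Where it exceeded the library-wide value, this background was a whole number of reads within 10 kb around the summit, taken from the same ChIP library. The library-wide average was 74.6, 81.5, 80.2 and 91.7 reads per 10 kb in limb EGFP+, limb EGFP-, trunk EGFP+ and trunk EGFP- cells, and the median summit held 29, 26, 28 and 28 reads. The promoters of chondrocyte genes followed the sort. A peak was present at 7 of 8 in limb EGFP+, 2 of 8 in limb EGFP-, 7 of 8 in trunk EGFP+ and 1 of 8 in trunk EGFP- cells, and at Col2a1 itself the summits held 110, 14 and 84 reads with no peak in trunk EGFP- cells. Promoter peaks at markers of the limb were absent. The promoters of Tbx5, Tbx4, Pitx1 and Shox2, transcription factors of the limb, had no peak in any list, while Pax1, a regulator of vertebral cartilage, had 43 reads in trunk EGFP+ cells and no peak elsewhere. Of 4 sclerotome genes, 2, 0, 4 and 0 had a promoter peak, of 4 muscle genes 1, 0, 0 and 0, of 4 neural genes 1, 0, 0 and 1, and of 4 genes each of endothelium, blood and skin 0 in every list. Their part in the Hox results was not tested. The sequencing lanes named for the limb libraries are not those of the trunk libraries, and an effect of the lane and one of the tissue cannot be told apart. The trunk EGFP- peaks are named as replicate 2 in their list, against replicate 1 in the sample label.

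The sequences that follow are the 200 bases around the summit at 2 Hox promoters and 5 other Hox intervals on which the comparisons turn. They are shown because they differ in the lists that called them and in their CpG content, and every CpG dinucleotide is in capitals. The lists named are those with an interval in the promoter window, defined below, or in the wider region, not always over the bases shown. At Hoxa11 the trunk EGFP- interval did not reach these bases. It covered 261 bp of the window, with its summit 200 bp downstream of the start site. Promoters are written on the strand of their gene and the others on the plus strand, 5′ to 3′, from GRCm39. None overlaps an annotated UTR.
Hoxa11 promoter, chr6:52223077-52223276, minus strand, called in all 4 lists: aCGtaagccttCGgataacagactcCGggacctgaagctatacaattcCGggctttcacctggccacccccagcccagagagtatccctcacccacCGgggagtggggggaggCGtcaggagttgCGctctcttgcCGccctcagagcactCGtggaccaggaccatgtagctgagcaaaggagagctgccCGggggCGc
Hoxd13 promoter, chr2:74497822-74498021, plus strand, called in the limb lists: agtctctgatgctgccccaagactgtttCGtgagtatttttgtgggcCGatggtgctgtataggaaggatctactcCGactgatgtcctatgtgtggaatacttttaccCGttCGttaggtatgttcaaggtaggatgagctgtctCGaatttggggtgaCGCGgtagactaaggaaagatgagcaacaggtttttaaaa
Hoxd12 upstream interval, chr2:74503137-74503336, intergenic, called in limb EGFP+ cells: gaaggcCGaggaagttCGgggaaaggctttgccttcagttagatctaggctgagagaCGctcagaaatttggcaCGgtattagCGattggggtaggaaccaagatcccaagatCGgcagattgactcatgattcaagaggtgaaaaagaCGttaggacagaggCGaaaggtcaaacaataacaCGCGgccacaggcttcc
Interval upstream of Hoxd13, chr2:74450800-74450999, intergenic, called in all lists but trunk EGFP-: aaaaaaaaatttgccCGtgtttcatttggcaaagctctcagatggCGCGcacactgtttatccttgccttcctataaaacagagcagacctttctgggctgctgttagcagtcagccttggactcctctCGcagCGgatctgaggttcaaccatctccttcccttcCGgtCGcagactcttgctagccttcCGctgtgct
Interval downstream of Hoxa2, chr6:52070746-52070945, intron of the long non-coding RNA Halr1, called in the EGFP+ lists: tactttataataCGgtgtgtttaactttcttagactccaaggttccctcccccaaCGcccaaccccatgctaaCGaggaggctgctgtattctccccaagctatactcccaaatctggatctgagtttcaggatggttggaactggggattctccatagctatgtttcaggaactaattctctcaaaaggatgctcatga
Near interval downstream of Hoxc4, chr15:102994104-102994303, intergenic, called in the EGFP+ lists: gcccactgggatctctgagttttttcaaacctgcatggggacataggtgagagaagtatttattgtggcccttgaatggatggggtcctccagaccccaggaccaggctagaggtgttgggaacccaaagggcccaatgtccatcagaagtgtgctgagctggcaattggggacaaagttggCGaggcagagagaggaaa
Far interval downstream of Hoxc4, chr15:103010782-103010981, in exons of long non-coding RNAs, called in all lists but limb EGFP+: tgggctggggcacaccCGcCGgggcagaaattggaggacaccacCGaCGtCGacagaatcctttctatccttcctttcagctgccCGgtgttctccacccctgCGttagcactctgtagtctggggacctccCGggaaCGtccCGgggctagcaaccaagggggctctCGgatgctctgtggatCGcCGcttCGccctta

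The CpG content of the windows differed. The Hoxa11 promoter window held 11 CpG in 200 bases at 63% GC and the Hoxd13 window 8 at 45.5%. Of the windows outside the clusters, the Halr1 intron held 3 CpG and the near interval downstream of Hoxc4 held 1, whereas the interval upstream of Hoxd13 held 8 and the far interval downstream of Hoxc4 held 14. Over all intervals inside the clusters but outside promoters, the median window held 9, 6, 7 and 7 CpG in limb EGFP+ (12 windows), limb EGFP- (9), trunk EGFP+ (19) and trunk EGFP- cells (27), against 3 among all non-promoter intervals of each list. Their median GC content was 57.2, 58, 56 and 57%, against 50, 50, 50.5 and 51.5%. Promoter windows inside the clusters were closer to the rest, with a median of 11, 10, 10 and 9 CpG (13, 10, 23 and 27 windows) against 9, 8, 9 and 10 among all promoter intervals. SOX half-sites, searched as ACAATG or ACAAAG on both strands, were present in 2 of 25, 2 of 19, 8 of 42 and 6 of 54 windows inside the clusters, or 8, 10.5, 19 and 11.1%. The share of all windows of a list that held one was 20.4, 21.7, 19.9 and 19.7%. The PBX-HOX letters TGATNNAT, on both strands, were in 0, 0, 2 and 4 of these windows, and in 4.67, 4.59, 4.49 and 3.61% of all windows. A SOX half-site lies in the near interval downstream of Hoxc4 shown above.

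A Hox gene was called marked where an interval reached its promoter window, set as the 2 kb before and the 500 bp after the canonical start site, by at least 1 bp. Of the 38 genes, 9 were marked in limb EGFP+ cells (23.7%, against 51.7% of all protein-coding genes), 7 in limb EGFP- cells (18.4% against 48.8%), 14 in trunk EGFP+ cells (36.8% against 49.7%) and 17 in trunk EGFP- cells (44.7% against 49.9%). Hoxa3, Hoxa4 and Hoxa11 were marked in all 4 lists, which is 7.89% of the Hox genes against 44.6% of all genes. No list marked 16 of them (42.1% against 44.1%), namely Hoxa2, Hoxa6, Hoxa9, Hoxa10, Hoxa13, Hoxb1, Hoxb3, Hoxb4, Hoxb5, Hoxb6, Hoxb8, Hoxb13, Hoxc5, Hoxc12, Hoxd1 and Hoxd4. The other 19 were marked in some lists and not in others.

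**Figure D1:**
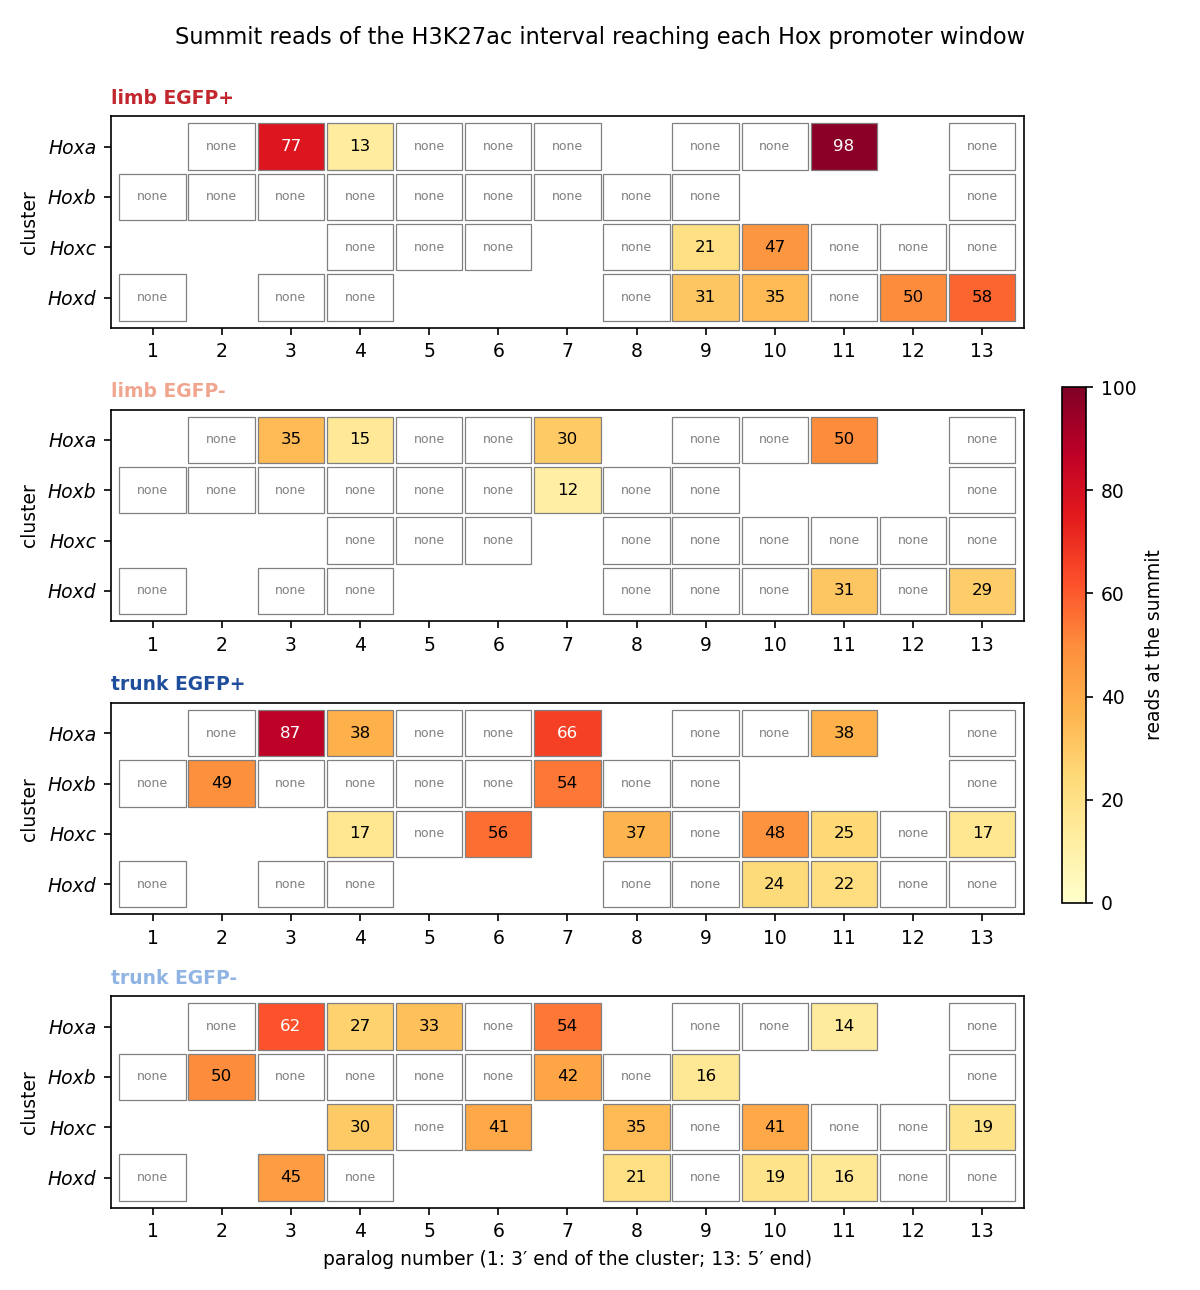
Summit reads of the H3K27ac interval that reached the promoter window of each Hox gene, with 1 panel per peak list, clusters in rows and paralog numbers in columns. Numbers and colour give reads at the summit, "none" is a gene without a called interval, and a blank has no gene among the 38. The marked genes of limb EGFP+ cells sit at paralogs 3 and 4 of Hoxa and from 9 upwards, with no Hoxb gene, and those of the trunk lists are spread from 2 to 13.

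By paralog number, the limb lists marked fewer genes than the trunk lists below paralog 9. Among the 11 genes of paralogs 5 to 8, limb EGFP+ cells marked 0, limb EGFP- cells 2, trunk EGFP+ cells 4 and trunk EGFP- cells 6. Among the 16 genes of paralogs 9 to 13 the counts were 7, 3, 6 and 6, and among the 11 of paralogs 1 to 4 they were 2, 2, 4 and 5. Both paralog 12 and paralog 1 had 2 genes each, of which Hoxd12 in limb EGFP+ cells was the only gene marked. Paralog 11 had 1, 2, 3 and 2 of its 3 genes marked and paralog 7 had 0, 2, 2 and 2 of its 2 genes, in the same order of lists.

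Limb and trunk EGFP+ cells were compared first. Marked in limb and not in trunk EGFP+ cells were 4 Hox genes, Hoxc9, Hoxd9, Hoxd12 and Hoxd13, or 10.5% of the 38 where the share of all genes was 3.57%. The reverse held for 9 genes, Hoxa7, Hoxb2, Hoxb7, Hoxc4, Hoxc6, Hoxc8, Hoxc11, Hoxc13 and Hoxd11, or 23.7% where all genes gave 1.53%. A missing call does not always mean fewer reads, as set out below for genes with a summit within 5 kb. Limb EGFP+ cells could hold 33 reads uncalled at Hoxd11, against 22 in trunk EGFP+ cells. Trunk EGFP+ cells could hold 22 at Hoxc9, against 21 in limb EGFP+ cells. At Hoxa7, Hoxc11 and Hoxd12 the limits of 31, 14 and 15 lay below the 66, 25 and 50 reads of the marked list. Each limit takes the local count of the nearest summit, here 3691, 1723 and 4924 bp from the start site. The local count at the promoter can differ, so a limit is not a bound on its reads. In EGFP- cells Hoxd13 alone was marked in the limb and not the trunk (1 of 38, where all genes gave 2.21%). There, 11 genes were marked in the trunk and not the limb, Hoxa5, Hoxb2, Hoxb9, Hoxc4, Hoxc6, Hoxc8, Hoxc10, Hoxc13, Hoxd3, Hoxd8 and Hoxd10, where all genes gave 3.26%. The 2 comparisons share no library, and Hoxb2, Hoxc4, Hoxc6, Hoxc8 and Hoxc13 were on the trunk side in both. Some of these calls depend on the window edge. Trunk EGFP+ and EGFP- intervals covered 131 and 166 bp of the window at Hoxb2, and 147 and 133 bp at Hoxc8. Limb EGFP- cells had intervals past the window, with summits 1066 bp (25 reads) and 1108 bp (19 reads) downstream of the Hoxb2 and Hoxc6 start sites.

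Differences between EGFP+ and EGFP- cells of a tissue took in fewer Hox genes. In the limb, 5 genes were marked in EGFP+ and not EGFP- cells, Hoxc9, Hoxc10, Hoxd9, Hoxd10 and Hoxd12, all of paralogs 9 to 12 (4.85% of all genes), and 3 in EGFP- and not EGFP+ cells, Hoxa7, Hoxb7 and Hoxd11 (1.92% of all genes). In the trunk, Hoxc11 was the 1 gene marked in EGFP+ and not EGFP- cells (3.17% of all genes), and Hoxa5, Hoxb9, Hoxd3 and Hoxd8 were the 4 of the reverse kind (3.34% of all genes). These trunk counts became 3 and 3 with intervals of −log10 q of at least 5, and 2 and 0 with a fold of at least 4. The 3 genes of limb EGFP- and not EGFP+ cells became 0 and 1 under the same filters, and 0 with lists of 20000 intervals each. At Hoxa7 and Hoxd11, limb EGFP- cells held 30 and 31 reads, where limb EGFP+ cells could hold 31 and 33 without a call.

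In the Hoxa cluster, 3, 4, 4 and 5 of 10 genes were marked in limb EGFP+, limb EGFP-, trunk EGFP+ and trunk EGFP- cells. Hoxa11, a gene of the forearm and lower leg segment, held 98 summit reads in limb EGFP+ cells (79.6 to 119), 50 in limb EGFP- cells (37.1 to 65.9), 38 in trunk EGFP+ cells (26.9 to 52.2) and 14 in trunk EGFP- cells (7.65 to 23.5). The interval of limb EGFP+ cells lay above and that of trunk EGFP- cells below every other list, while those of the remaining lists overlapped. These summits were not at 1 position. They lay 371 bp upstream, 213 bp downstream, 531 bp upstream and 200 bp downstream of the start site. At summits matched within 250 bp, limb EGFP+ and limb EGFP- cells held 80 and 50 reads downstream of the start, and 98 and 46 upstream. Hoxa4, which belongs to the cervical part of the axis, ran the other way, with 13 (6.92 to 22.2) and 15 reads (8.4 to 24.7) in the limb lists, 38 (26.9 to 52.2) in trunk EGFP+ and 27 (17.8 to 39.3) in trunk EGFP- cells. The trunk EGFP+ interval was clear of both limb intervals, and the trunk EGFP- interval overlapped them.

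Hoxa3, the third gene marked everywhere, held 77, 35, 87 and 62 reads. This call sits far from the coding part of the gene. The canonical start site of Hoxa3 lies 40.5 kb from its start codon, between Hoxa6 and Hoxa7, and the peak is at that start. A Hoxa3 start site 37.2 kb further downstream, close to the coding sequence, was reached by an interval in trunk EGFP+ and trunk EGFP- cells and in neither limb list. Hoxa7, a gene of the thoracic axis, was marked in all lists but limb EGFP+, with 30, 66 and 54 reads in limb EGFP-, trunk EGFP+ and trunk EGFP- cells, and a further start site 4.35 kb upstream was reached in limb EGFP+ cells with 60 reads. Hoxa5 was marked in trunk EGFP- cells alone, with 33 reads (22.7 to 46.3).

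Hoxa10, which patterns the upper arm and thigh, had no interval in its canonical promoter window in any list, yet the highest local signal of the clusters lay beside it. An interval over a Hoxa10 exon, chr6:52209953-52210387, held 79 reads in limb EGFP+ and 74 in limb EGFP- cells, with 2052 and 1357 reads in the surrounding 10 kb, and was absent from both trunk lists. A start site of Hoxa10 that lies 5.92 kb upstream of the canonical one was reached in all 4 lists. At the 5′ end, Hoxa13, a gene of the hand and foot, had no marked promoter, but an interval over its exon 0.828 kb downstream of the start, chr6:52236866-52237096, held 32 reads in limb EGFP+ cells alone. Between Hoxa11 and Hoxa13, the intergenic interval chr6:52229750-52230486 held 46 reads in limb EGFP+ cells and was in no other list.

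In the Hoxb cluster, limb EGFP+ cells had no interval at all inside the cluster or within 100 kb of its start sites, against 9, 18 and 25 in limb EGFP-, trunk EGFP+ and trunk EGFP- cells. Of its 10 genes, 0, 1, 2 and 3 were marked. Hoxb7 held 12 reads in limb EGFP- (6.2 to 21), 54 in trunk EGFP+ (40.6 to 70.5) and 42 in trunk EGFP- cells (30.3 to 56.8). The intervals of the trunk lists overlapped each other and lay above that of the limb. These summits were 627 bp upstream, 205 bp upstream and 382 bp downstream of the start site. At summits matched within 250 bp, limb EGFP- and trunk EGFP- cells held 12 and 27 reads. Hoxb2, a gene of the hindbrain, was marked in the trunk lists, where the interval that reached its window had its summit at 49 and 50 reads, 1236 and 569 bp downstream of the start site. Hoxb9 was marked in trunk EGFP- cells with 16 reads. An interval in an intron of Hoxb6, chr11:96185628-96185942, held 61 reads in trunk EGFP+ cells, with none called in the other lists. Its neighbours, at chr11:96185106-96185312 and chr11:96186354-96186640, were likewise in trunk EGFP+ cells only, with 43 and 48 reads, and the 10 kb around all of these intervals largely overlap.

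In the Hoxc cluster, 2, 0, 6 and 5 of 9 genes were marked. Hoxc10, a gene of the lumbar axis and the hindlimb, held 47 reads in limb EGFP+ (34.5 to 62.5), 48 in trunk EGFP+ (35.4 to 63.6) and 41 in trunk EGFP- cells (29.4 to 55.6), values with overlapping intervals, with no call in limb EGFP- cells. Hoxc9 had 21 reads (13 to 32.1) in limb EGFP+ cells and no call in the other lists. Hoxc4, Hoxc6 and Hoxc8, genes of the neck and thorax, were marked in the trunk lists, with 17 and 30, 56 and 41, and 37 and 35 reads in EGFP+ and EGFP- cells. Hoxc13, at the 5′ end, had 17 and 19 reads in the same lists, and Hoxc11 had 25 in trunk EGFP+ cells alone. A region over an exon of Hoxc6 and an intron of Hoxc5, chr15:102907926-102909448, was merged from overlapping intervals of the lists. It was the 1 non-promoter region of all clusters that every list called. Its summits of highest −log10 p held 26, 28, 58 and 69 reads in the usual order of lists, but not at 1 position. Near position 102908148, where every list had a summit, the reads were 26, 19, 46 and 69. The 10 kb around these summits held 284, 268, 993 and 1097 reads, so both limb lists lay far below both trunk lists.

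In the Hoxd cluster, 4, 2, 2 and 4 of 9 genes were marked. Hoxd13, required for digit formation, held 58 reads in limb EGFP+ (44 to 75) and 29 in limb EGFP- cells (19.4 to 41.6), which do not overlap, and had no call in the trunk. Hoxd12 held 50 reads (37.1 to 65.9) and Hoxd9 31 reads (21.1 to 44) in limb EGFP+ cells alone. Hoxd10 held 35, 24 and 19 reads in limb EGFP+, trunk EGFP+ and trunk EGFP- cells, whose intervals overlap. Hoxd11 was marked in every list but limb EGFP+, with 31, 22 and 16 reads. In limb EGFP+ cells an interval 0.99 kb inside Hoxd11, chr2:74511774-74512078, held 47 reads. At the 3′ end, Hoxd3 with 45 reads (32.8 to 60.2) and Hoxd8 with 21 (13 to 32.1) were marked in trunk EGFP- cells alone. The canonical start of Hoxd3 also lies away from its coding part, 32.1 kb from the start codon and on the 5′ side of Hoxd4.

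Over the Hox regions as a whole, peaks were dense and shallow over their surroundings. The 4 spans, 99.2 kb for Hoxa, 174 kb for Hoxb, 116 kb for Hoxc and 96.8 kb for Hoxd, held 5.15, 3.91, 8.65 and 11.1 intervals per 100 kb in limb EGFP+, limb EGFP-, trunk EGFP+ and trunk EGFP- cells, against 1.5, 1.26, 1.33 and 1.13 in the genome. Their summits held more reads than the median summit of the same list, with medians of 46.5, 28, 38 and 34. The median fold over the local background was lower, at 2.59, 2.99, 2.81 and 2.72 against 4.22, 4.19, 3.97 and 4 over all summits. The 10 kb around a Hox summit held a median of 842, 439, 632 and 633 reads, where all summits of these lists had 285, 257, 294 and 293.

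**Figure D2:**
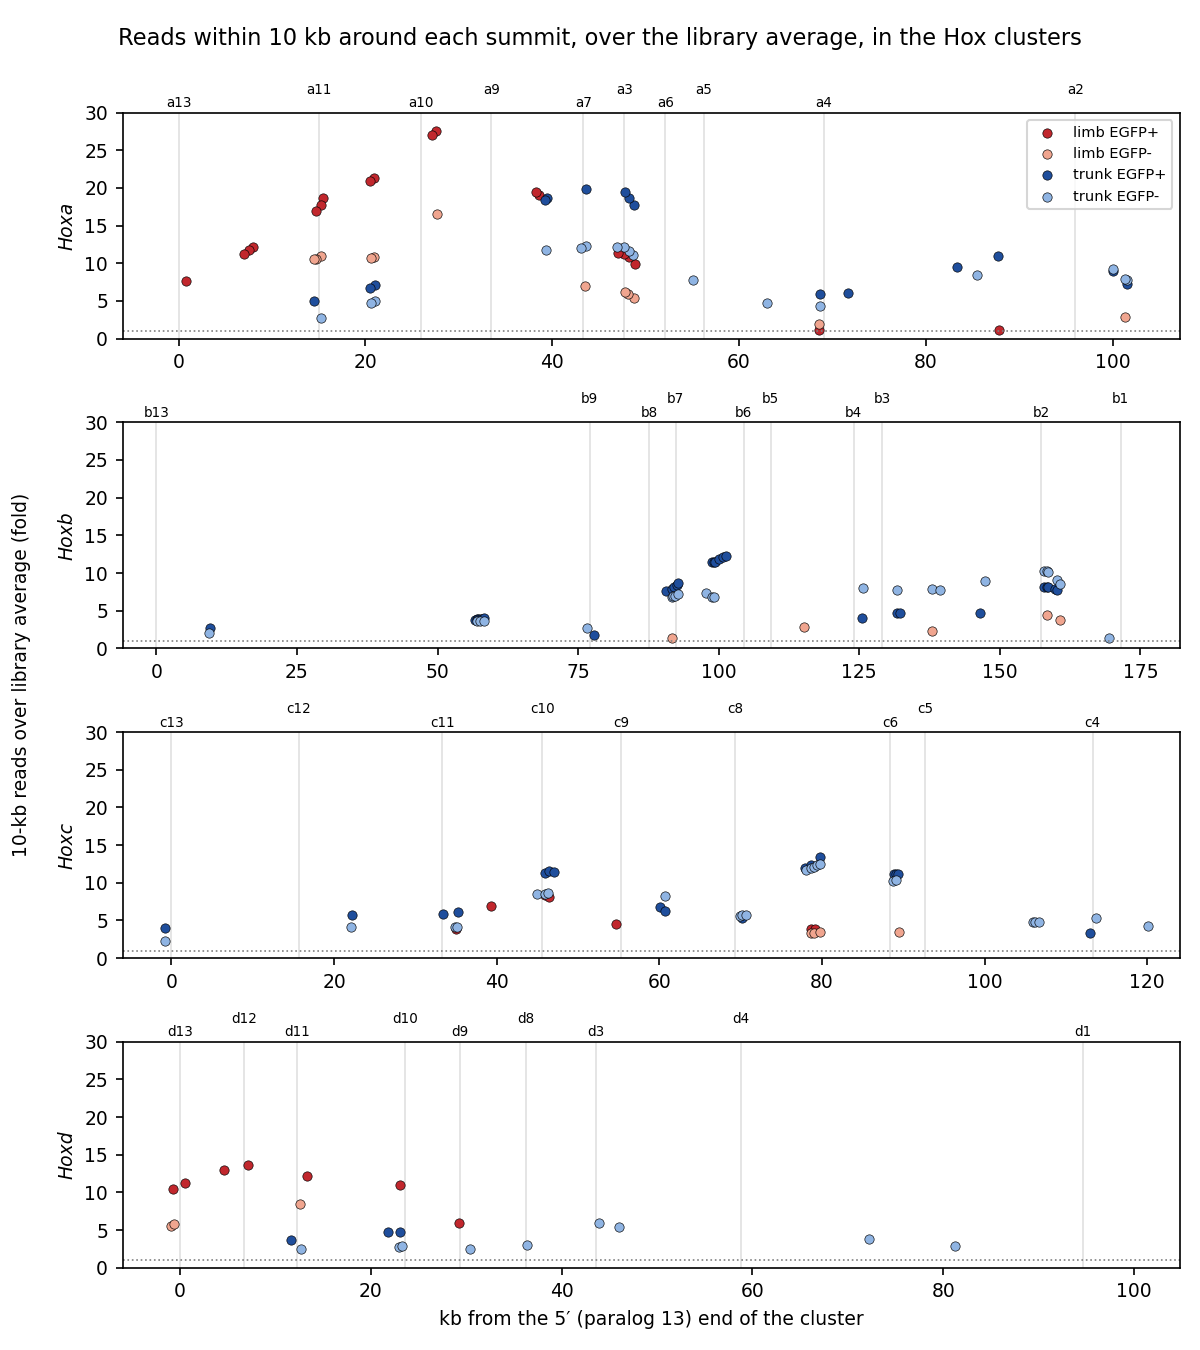
Reads within 10 kb around each H3K27ac summit, divided by the library-wide average, along the 4 Hox clusters from the 5′ end (in kb). Each point is a summit of 1 list, grey lines mark the canonical start sites, and the dotted line is the library average. Limb EGFP+ summits reach 27.5 times the average beside Hoxa10 and up to 13.6 times in 5′ Hoxd, and trunk EGFP+ summits reach 19.9 times beside Hoxa7.

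These local counts set which promoters could be called. The peak caller asks for an excess over the surrounding 10 kb of the same library, so a promoter inside a broad acetylated stretch needs more reads. Beside Hoxa10 in limb EGFP+ cells the nearest summit, 1172 bp from the start site, had 2017 reads around it, 27 times the average. At that level a summit of 62 reads stays uncalled, a number that 82.3% of the called summits of the list do not exceed. Unmarked Hox genes with a summit within 5 kb numbered 7, 6, 11 and 10 in limb EGFP+, limb EGFP-, trunk EGFP+ and trunk EGFP- cells, and the reads they could hold without a call had medians of 31, 15.5, 23 and 26.5. The limits ran from 14 to 62, 8 to 45, 9 to 47 and 8 to 34 reads in the same order. Each takes the local count of the nearest summit, up to 5 kb away, so it is only a guide to the promoter. On that guide, the absence of a call limits the reads closely at some of these genes and loosely at others. Hoxa6 in trunk EGFP+ cells, with 1418 reads in the 10 kb around a summit 3348 bp away, could hold 47.

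**Figure D3:**
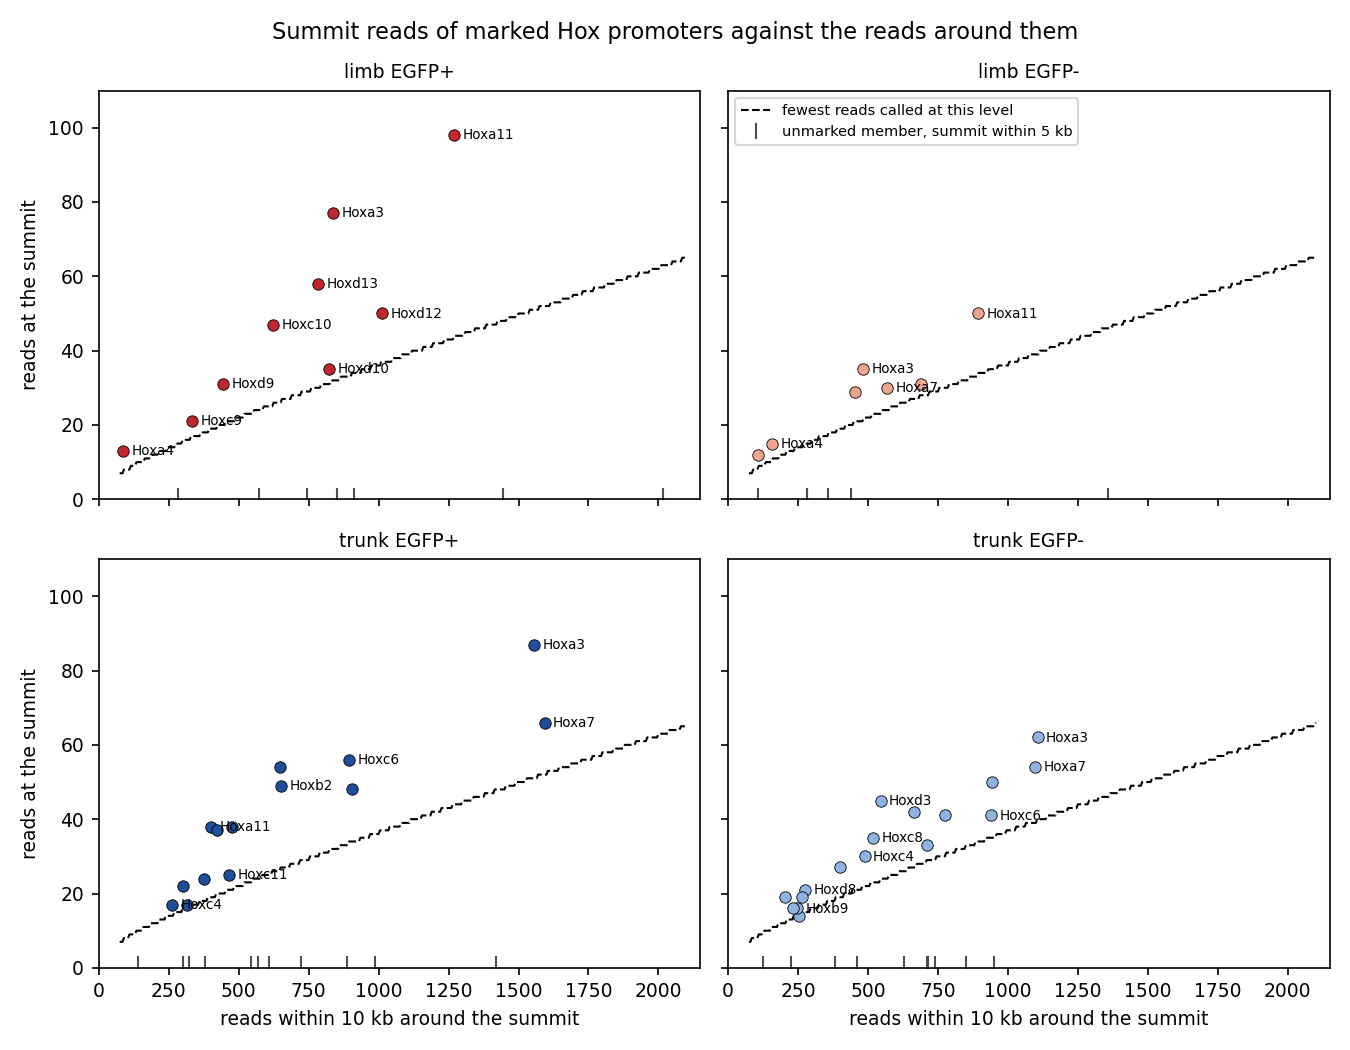
Reads at the summit against reads within 10 kb around it, for the marked Hox promoters of each list (points, some labels left out where points lie close). The dashed line is the fewest reads that give the lowest −log10 p of that list, and ticks on the x axis are unmarked genes at the level of a summit within 5 kb. Several points lie close to the line, among them Hoxd10 in limb EGFP+ cells with 35 reads at a local count of 823.

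The local count was compared between tissues at the same positions, using summits of a pair of lists within 250 bp of each other and dividing each count by the library average. Over all 32819 pairs of limb and trunk EGFP+ summits the log2 ratio of limb to trunk had a median of 0.22, with 5% of the pairs below −0.37 and 5% above 0.64. The Hoxa cluster crossed this range from end to end. The ratio was 3.4 (3.03 to 3.81, 1270 against 402 reads) at Hoxa11 and 3.09 (2.8 to 3.41) between Hoxa10 and Hoxa11. It was 0.578 (0.531 to 0.629) at the Hoxa3 start beside Hoxa7, 0.196 (0.154 to 0.246, 87 against 478 reads) at Hoxa4, and 0.11 (0.0876 to 0.137, 90 against 879 reads) between Hoxa4 and Hoxa2. Neighbouring windows share reads, so these are few independent values. Hoxd10 gave 2.35 (2.07 to 2.66), Hoxc10 0.739 (0.666 to 0.819) and the stretch between Hoxc8 and Hoxc6 0.307 (0.268 to 0.351).

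EGFP- cells, from other libraries, had the same order along Hoxa. Their ratio of limb to trunk was 3.95 (3.44 to 4.56, 893 against 254 reads) at Hoxa11, 2.23 (1.99 to 2.51) between Hoxa10 and Hoxa11, 0.568 (0.513 to 0.629) at Hoxa7 and 0.443 (0.366 to 0.534) at Hoxa4. Hoxd11 gave 3.33 (2.87 to 3.88), whereas Hoxb7 gave 0.195 (0.158 to 0.24), Hoxb2 0.428 (0.378 to 0.484) and the stretch between Hoxc8 and Hoxc6 0.275 (0.239 to 0.314). The log2 ratio over all 26440 pairs had a median of 0.09, with 5% below −0.33 and 5% above 0.50.

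**Figure D4:**
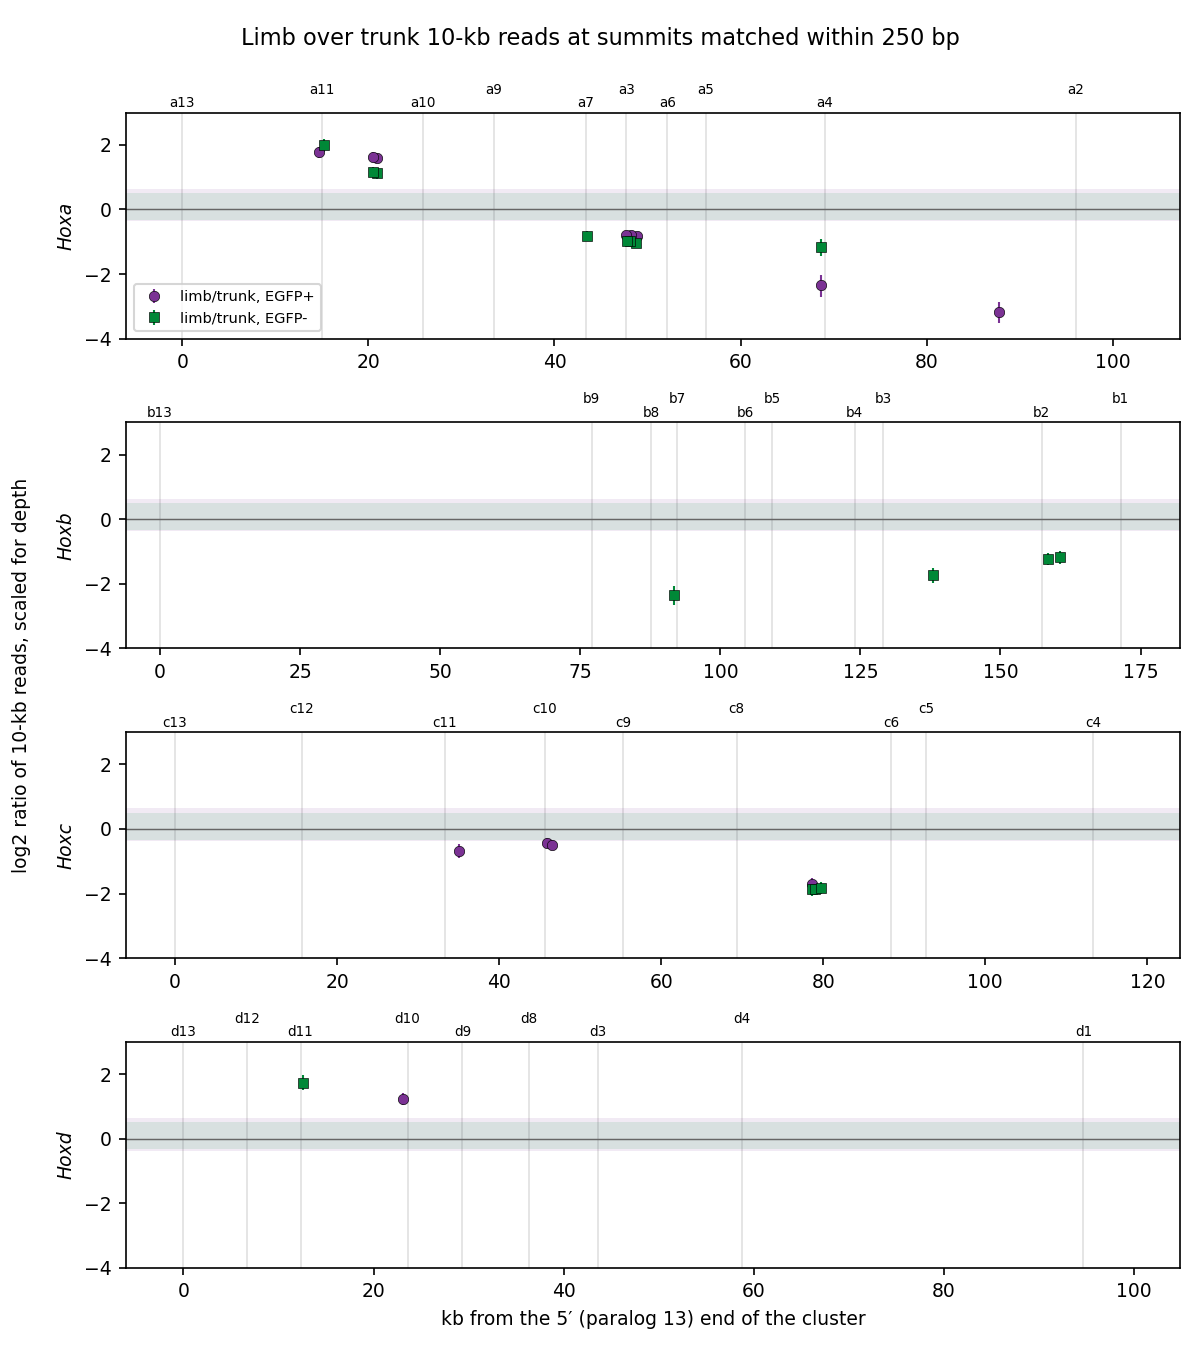
Log2 ratio of limb to trunk reads within 10 kb around summits matched within 250 bp, scaled for depth, along the 4 clusters from the 5′ end (in kb), for EGFP+ (circles) and EGFP- cells (squares). Bars are exact 95% intervals of the ratio, and shaded bands hold the central 90% of all matched summits of each comparison. Points at Hoxa10, Hoxa11, Hoxd10 and Hoxd11 lie above the bands, and those from Hoxa7 to Hoxa2 and in Hoxb and Hoxc lie below.

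Between EGFP+ and EGFP- cells of the same tissue the local counts differed less. In the limb, the ratio of EGFP+ to EGFP- reads was 1.96 (1.8 to 2.13, 1559 against 871) between Hoxa10 and Hoxa11, 1.6 (1.47 to 1.75) at Hoxa11 and 1.81 (1.62 to 2.03) at the Hoxa3 start, and 0.602 (0.458 to 0.786, 87 against 158 reads) at Hoxa4. The log2 median over all 26845 pairs was 0.33, with 5% below −0.46 and 5% above 1.06, and the ratio at Hoxa4 lay outside this range. In the trunk, the ratio was 1.62 (1.5 to 1.75) at Hoxa7, 1.65 (1.49 to 1.83) at Hoxb6, 0.607 (0.534 to 0.688, 380 against 716 reads) in an intron of Hoxb3 and 0.794 (0.718 to 0.879) at Hoxb2. There the log2 median over 25373 pairs was 0.20, with 5% below −0.41 and 5% above 0.81, and of these ratios the one in Hoxb3 lay outside.

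The share of bases under intervals was taken with each cluster cut between its paralogs 8 and 9. In the 5′ stretch of Hoxa, intervals covered 10.4, 5.11, 4.08 and 2.84% in limb EGFP+, limb EGFP-, trunk EGFP+ and trunk EGFP- cells, and in its 3′ stretch 4.39, 2.56, 5.28 and 5.46%. In the 5′ stretch of Hoxd they covered 6.11, 0.984, 2 and 3.43%, and in its 3′ stretch 0% in all lists but trunk EGFP-, which had 2.33%. Limb EGFP+ cells were thus above both trunk lists in 5′ Hoxd and limb EGFP- cells below both, although the local count at Hoxd11 was higher in limb than in trunk EGFP- cells. The whole Hoxb span was covered to 0, 0.86, 4.87 and 4.06%, and Hoxc to 2.13, 0.956, 4.77 and 5.49%. All spans together were covered to 2.29, 1.33, 4 and 4.21%, where the genome was covered to 0.789, 0.595, 0.678 and 0.555%.

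**Figure D5:**
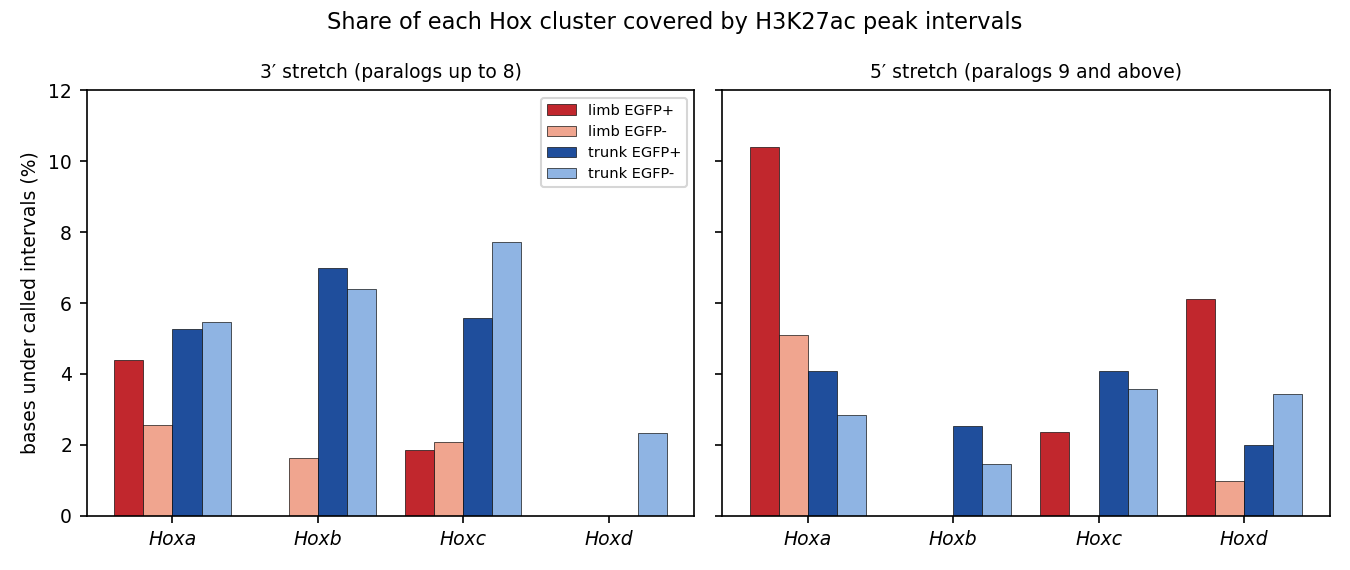
Percent of bases under called H3K27ac intervals in the 3′ stretch (left) and the 5′ stretch (right) of each Hox cluster, with 1 bar per list. Limb EGFP+ bars are highest in 5′ Hoxa (10.4%) and 5′ Hoxd (6.11%) and are absent from Hoxb.

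Outside promoters, overlapping intervals of the 4 lists were merged into 77 regions, 12 at Hoxa, 24 at Hoxb, 32 at Hoxc and 9 at Hoxd. Of these, 43 were called in trunk lists only, 15 in limb lists only, 27 in EGFP+ lists only and 27 in EGFP- lists only. The same shares over all merged regions of the genome are not given, so these counts do not show a departure from the rest. The shares that follow are of intervals of single lists, each beside its whole list. Without an overlapping trunk EGFP+ interval were 12 of 20 limb EGFP+ intervals (60%, 36.1 to 80.9%, where all gave 50.6%), and without a limb EGFP+ interval 26 of 33 trunk EGFP+ intervals (78.8%, 61.1 to 91%, where all gave 40.6%). In EGFP- cells 34 of 46 trunk intervals had no limb interval (73.9%, 58.9 to 85.7%, where all gave 46.3%), and 6 of 20 limb intervals had no trunk interval (30%, 11.9 to 54.3%, where all gave 55.4%). The 95% intervals of both trunk shares lay above the share of the whole list. They treat neighbouring intervals of a library as independent, although some lie close together in the same acetylated stretch. No replicate library was available, so this is not a test against the whole list. These limb and trunk shares were not recomputed under other filters.

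In the limb, 17 of 20 EGFP+ intervals had no EGFP- interval (85%, 62.1 to 96.8%, where all gave 68.5%) and 16 of 20 EGFP- intervals had no EGFP+ interval (80%, 56.3 to 94.3%, where all gave 56.6%). All 8 of the limb EGFP- intervals outside promoters at Hoxb belonged to the latter. In the trunk, 17 of 33 EGFP+ intervals (51.5%, 33.5 to 69.2%, where all gave 69.1%) and 24 of 46 EGFP- intervals (52.2%, 36.9 to 67.1%, where all gave 57.3%) had none in the opposite fraction.

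Of the 27 regions called in EGFP+ lists only, 4 were shared by limb and trunk. The interval in an intron of Halr1, chr6:52070697-52071106, lies 71 kb downstream of the Hoxa2 start and held 18 reads in limb EGFP+ (10.7 to 28.4) and 15 in trunk EGFP+ cells (8.4 to 24.7). The interval chr15:102994078-102994312, which lies 51.4 kb downstream of the Hoxc4 start, held 16 and 23 reads in the same lists. Both stood in little local signal, with 112 and 133, and 163 and 248 reads in the surrounding 10 kb. They are the CpG-poor sequences printed above. The far interval downstream of Hoxc4, chr15:103010546-103011237, went the other way, with 24, 17 and 42 reads in limb EGFP-, trunk EGFP+ and trunk EGFP- cells. Its −log10 p of 18.2 in trunk EGFP- cells was the highest of the 77 regions.

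At Hoxd, the merged region chr2:74450434-74451704 lies 47.8 kb upstream of Hoxd13 in the gene-poor flank. Its summits of highest −log10 p held 28, 16 and 19 reads in limb EGFP+, limb EGFP- and trunk EGFP+ cells. It was the 1 Hoxd region outside promoters called in more than 1 list. The remaining limb regions were in limb EGFP+ cells alone. They included chr2:74503123-74503348, which lies 2.12 kb upstream of Hoxd12 (44 reads), and chr2:74485472-74485692 over an exon of Evx2 (39 reads), with 968 and 720 reads in the 10 kb around them.

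Genes that work with the Hox proteins or lie beside the clusters completed the account. Of the 9 genes for TALE cofactors, the PBX, MEIS and PREP homeodomain proteins that bind DNA together with Hox proteins, 7, 7, 8 and 8 had a promoter interval. Meis1 held 25, 45, 66 and 73 summit reads and Meis2 17, 22, 41 and 65 in limb EGFP+, limb EGFP-, trunk EGFP+ and trunk EGFP- cells. Evx2, the neighbour of Hoxd13, was marked in limb EGFP+ and limb EGFP- cells with 50 and 29 reads and in neither trunk list, as Hoxd13 was. Evx1, beside Hoxa13, and Cdx1, Cdx2 and Cdx4, which act upstream of the Hox genes in the early axis, had no promoter interval in any list.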

How the data were processed

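The 4 H3K27ac peak lists each hold 1 population. Per the paper's methods, the authors sampled a like number of reads per library, trimmed adapters with cutadapt 1.18, mapped with Bowtie2 2.3.5.1 to GRCm39, filtered with SAMtools and called peaks per library with MACS2 2.2.7.1 on reads extended to 200 bp. No control library is named. The deposited lists give a score (a whole number derived from the −log10 q) and a fold (a ratio of summit to local background, each with 1 read added). They also give the −log10 p and −log10 q that the authors' MACS2 run wrote.

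Summits that share start and end became 1 interval, on the autosomes, X and Y. Summit reads and backgrounds were solved from the fold and −log10 p (largest error 0.0005 or less in −log10 p) and the solution was tested on simulated data. Backgrounds came out whole, within 0.025 reads, for 100% of the summits above the library-wide value. Non-promoter intervals lay outside the windows of the 67300 start sites of protein-coding genes. Named regions were, per cluster, the 3 of highest −log10 p overall and among EGFP+, limb and trunk lists. Reads have exact Poisson intervals, shares exact (Clopper-Pearson) intervals and ratios exact conditional binomial intervals. Members and lists were chosen with earlier results of these data known, and the 10-kb comparison, the start sites away from the canonical one and the CpG counts after values were seen. Sequences were read with samtools 1.23.1 and pysam 0.24.0, statistics came from scipy 1.17.1 with pandas 2.3.3 and numpy 2.4.6, and figures from matplotlib 3.10.9 under Python 3.11.15. Some values and sequences are not reported here.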

Additional observations from a re-analysis of the deposited data

Results flagged for a closer look

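The contrast of EGFP+ with EGFP- cells had opposite signs in limb and trunk for 6 of the values above. With 1 library per group the difference between the tissues was not tested, and a pair of libraries always differs in one direction or the other. The number of Hox genes with a promoter peak was 2 higher in EGFP+ than EGFP- cells of the limb (9 and 7) and differed by -3 in the trunk (14 and 17). The number of intervals at the clusters was 2 higher in the limb (39 and 37) and differed by -16 in the trunk (62 and 78). Under the other settings the opposite signs did not all hold. Marked genes in EGFP+ and EGFP- cells of the trunk were 8 and 8 with a −log10 q of at least 5, and with a fold of at least 4 they were 2 and 1 in the limb and 2 and 0 in the trunk. With that fold filter both signs for intervals turned, with 9 and 10 in the limb and 11 and 8 in the trunk, and with 20000 intervals per list the limb had 13 and 13. Coverage of all spans was 0.965 percentage points higher in the limb and differed by -0.211 in the trunk. In EGFP+ and EGFP- cells of the trunk it was 2.69 and 2.21% with the q filter and 0.279 and 0% with the fold filter, so that EGFP+ cells were then higher in both tissues. By cluster, where the filters were not tried, the difference in the limb was -0.86 points for Hoxb, 1.17 for Hoxc and 1.74 for Hoxd, and in the trunk it was 0.81, -0.72 and -2.03.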

How the results depend on the processing

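No paired analysis was possible because each population has 1 library and all are labelled replicate 1. For the same reason no replicate could be left out. Of 140 values under other settings 76 stayed within 1.5 times of the reported count, or within the 95% counting interval of the reported share or reads, and 64 did not. Where the lists are shortened, fewer intervals pass by construction. Values follow the order limb EGFP+, limb EGFP-, trunk EGFP+ and trunk EGFP-. Intervals at the clusters, planned as counts, are given here per 100 kb of sequence, a scale chosen after the values were seen, on which the reported values are 3.06, 2.9, 4.86 and 6.12. Compared as counts, 74 of the 140 values stayed within those limits and 66 did not. At a −log10 q of at least 5, marked genes in the last 3 lists fell to 2, 8 and 8, intervals 1.65, 1.18, 2.59 and 2.67, and coverage of the spans was 1.48, 0.674, 2.69 and 2.21%. At a fold of at least 4 marked genes were 2, 1, 2 and 0, intervals 0.706, 0.784, 0.862 and 0.627, and coverage 0.564, 0.274, 0.279 and 0%. With 20000 intervals per list, marked genes were 4, 2, 8 and 10, intervals 1.02, 1.02, 1.8 and 3.06, and coverage 0.854, 0.612, 2.39 and 2.44%. Marked genes in limb and trunk EGFP+ cells, reported as 9 and 14, were 7 and 8 with the q filter, 4 and 8 with the equal lists and 2 and 2 with the fold filter.

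Genes marked in limb EGFP- and not limb EGFP+ cells numbered 0, 1 and 0 under the q filter, the fold filter and the equal lists, and those in trunk EGFP+ and not trunk EGFP- cells 3, 2 and 2. Those in trunk and not limb EGFP+ cells numbered 4, 2 and 5. The fold filter and the equal lists left 2 and 2 genes in limb EGFP+ and not limb EGFP- cells, and 2 and 1 in limb and not trunk EGFP+ cells. In EGFP- cells the count of trunk and not limb was 7 with the q filter and 0 with the fold filter, which also left 0 in trunk EGFP- and not trunk EGFP+ cells. The count of limb and not trunk EGFP- cells became 0 with windows of 500 bp on each side. The share of non-promoter intervals without a peak of the opposite fraction rose in the trunk lists to 84.6 and 72.2% (q filter, 13 and 18 intervals) and to 80 and 80% (fold filter, 5 and 5 intervals). With the equal lists it was 100, 100, 100 and 85% of 2, 4, 6 and 20 intervals. Inside the spans only, intervals rose to 5.15, 3.91, 8.65 and 11.1, and within 500 kb they were 3.24, 3.11, 3.58 and 3.71, so that the gap between trunk and limb lists was narrow at that distance. With all start sites, 11, 8, 17 and 20 genes were marked, by the addition of Hoxa7, Hoxa10, Hoxb3 and Hoxb6 in some lists. Scaling summit reads for depth, requiring 200 bp of overlap, 50% overlap of intervals, or a distance of 1 kb left every value within those limits.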
